A study of Homo sapiens with 6 samples.

Results

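Luminal mammary identity was followed in MCF-12A cells through a set of 9 named genes, GATA3, ELF3, ELF5, EHF, SLPI, CD24, LCN2, MUC1 and EPCAM, which were taken by gene symbol. The count table held 8 of them among 14803 genes, and ELF5 was not analysed here. MCF-12A cells are breast epithelial cells of a human line that forms no tumours and lacks the estrogen receptor, as the study describes it. The OA group had octanoic acid, a medium-chain saturated fatty acid given as its sodium salt in phosphate-buffered saline, for 24 h, and the vehicle group had phosphate-buffered saline alone. Each group held 3 RNA sequencing libraries of the same line, grown in mammary epithelial medium. The labels do not say that these were separate cultures, and the p-values cover only how far the libraries of a group differed, perhaps for technical reasons. Library totals ran from 47508208 to 49585010 counts in OA and from 43049972 to 59935521 counts in vehicle. The dose used for this line was not given in the sources used here.

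The mammary gland is lined by inner luminal cells, which make and release milk, and outer basal cells, which contract and touch the basement membrane. GATA3 is a zinc finger transcription factor needed to set up and hold luminal fate. ELF3 and EHF belong to the epithelium-specific branch of the ETS transcription factors, as does ELF5. SLPI and LCN2 are secreted defence proteins, one an inhibitor of neutrophil proteases and the other a carrier that withholds bacterial iron. CD24, MUC1 and EPCAM sit at the cell surface. CD24 is a small glycoprotein held by a lipid anchor, MUC1 is a mucin of the apical membrane, and EPCAM is an adhesion molecule of simple epithelia. All are used as markers of luminal cells, although several are expressed in other epithelia too.

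Of the 8 genes, 5 were higher in OA (LCN2, ELF3, SLPI, EPCAM and EHF), 2 were lower (CD24 and MUC1), and GATA3 did not pass the threshold. The threshold was an adjusted p of 0.01 by edgeR's quasi-likelihood test over all 14785 genes tested. The treatment moved most of the transcriptome at this depth. Of all genes tested 84.5% were called, 43.3% higher and 41.1% lower, so that 7 calls among 8 genes stood close to the background. The libraries of the OA and vehicle groups did not overlap for any of the 8 genes, which was also the case for 88.8% of all genes. The direction and size of the changes are therefore given gene by gene. In these bulk libraries fewer cells of a type and less RNA per cell cannot be told apart. Each value is in CPM, the counts of a gene relative to the counts of its whole library, scaled between libraries by the trimmed mean of M-values (TMM).

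**Figure D1:**
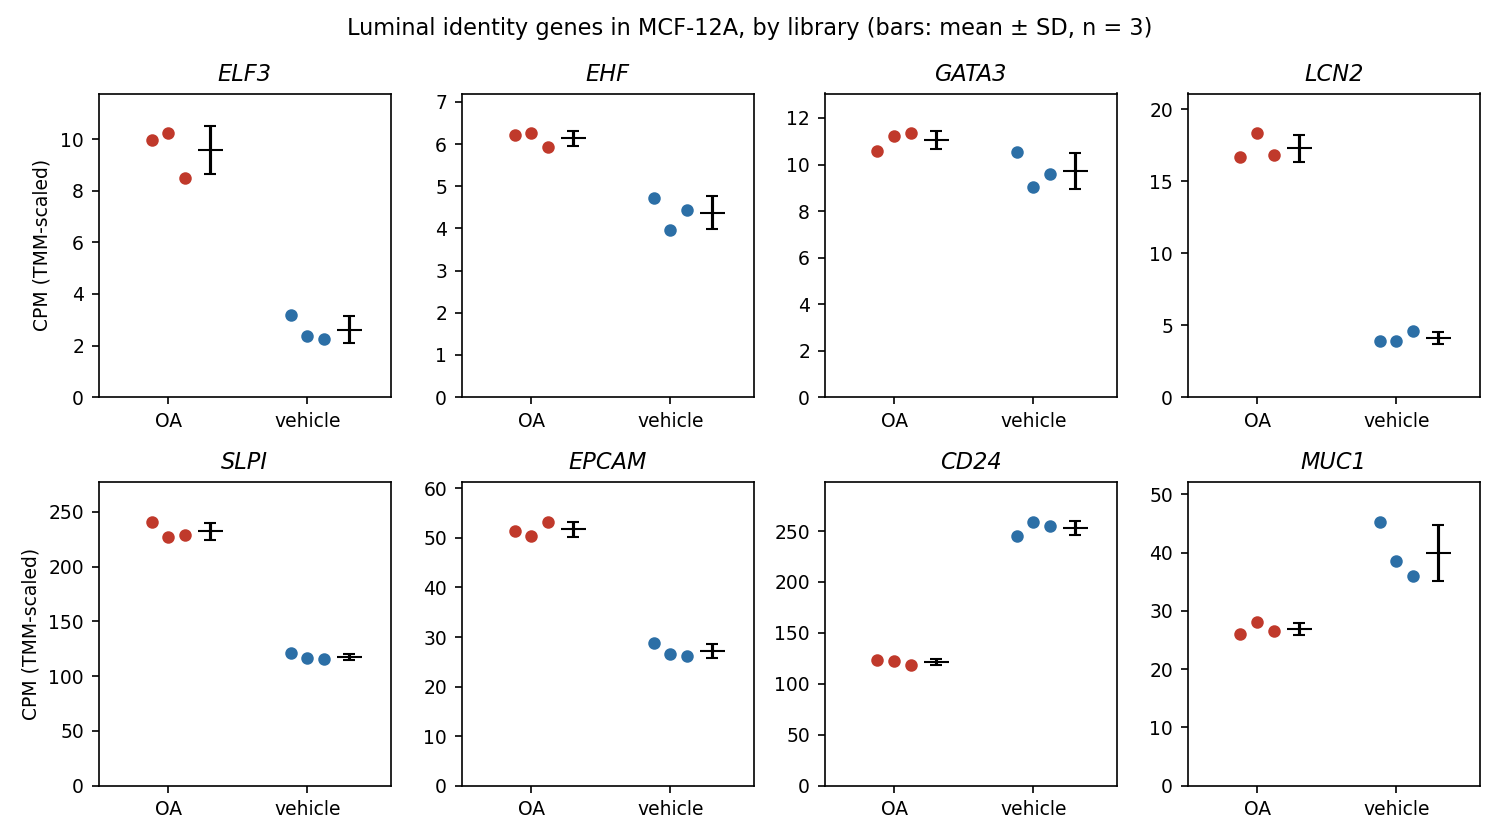
TMM-scaled CPM of the 8 genes (vertical axis from 0, a scale of its own for each gene) in the 3 OA libraries (red) and the 3 vehicle libraries (blue), with black bars for the mean ± SD. The OA libraries lie above the vehicle libraries for ELF3, EHF, LCN2, SLPI and EPCAM and below them for CD24 and MUC1, while for GATA3 the lowest OA library (10.6 CPM) lies next to the highest vehicle library (10.6 CPM).

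The upstream sequences of the genes with the largest rises, LCN2 and ELF3, and of the genes that fell, CD24 and MUC1, are shown as the sequence before a RefSeq start site of each gene. They were read from RefSeq windows on GRCh38.p14, 5′ to 3′ on the gene's strand. In LCN2, CD24 and MUC1 any bases inside a GENCODE exon of the gene or an exon used for the counts were left off. The ELF3 stretch lies before the exons used for its counts and is kept to 30 bases because the first exon of a longer GENCODE transcript of ELF3 runs through it. The CD24 stretch lies inside the span used for its counts, between the outermost counted exon and the next, since that span begins further upstream than any of its RefSeq windows. Capitals mark matches to GGGNNNNTCC and TGANTCA, loose forms of the NF-kB and AP-1 motifs, and to TATAAA, the TATA box. In ELF3 they mark the stricter NF-kB form GGGNNTTTCC. The motifs were searched on both strands, and the strict NF-kB form is contained in the loose NF-kB form.
LCN2, chr9:128149265-128149429, plus strand: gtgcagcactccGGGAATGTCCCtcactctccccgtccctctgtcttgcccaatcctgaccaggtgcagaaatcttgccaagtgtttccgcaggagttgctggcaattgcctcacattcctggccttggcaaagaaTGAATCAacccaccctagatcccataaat
ELF3, chr1:202010489-202010518, plus strand: ctaaaggccaGGAAATCCCCtccatccaat
CD24, chr6:106975628-106975877, minus strand: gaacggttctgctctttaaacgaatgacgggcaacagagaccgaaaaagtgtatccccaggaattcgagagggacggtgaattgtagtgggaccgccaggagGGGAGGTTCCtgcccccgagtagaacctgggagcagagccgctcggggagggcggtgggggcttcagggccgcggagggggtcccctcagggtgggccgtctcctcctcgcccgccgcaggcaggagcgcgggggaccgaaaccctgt
MUC1, chr1:155192917-155193165, minus strand: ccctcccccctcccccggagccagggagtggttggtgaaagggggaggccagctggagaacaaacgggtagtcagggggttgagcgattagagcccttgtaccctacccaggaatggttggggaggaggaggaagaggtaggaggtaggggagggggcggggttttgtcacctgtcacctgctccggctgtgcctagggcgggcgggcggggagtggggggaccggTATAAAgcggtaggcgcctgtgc

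The strict NF-kB form began 88 bases before the ELF3 start site and was found in 1.73% of all 35116 RefSeq windows of 250 bases. The loose form was found in 19.9% of windows. LCN2 held it once on each strand, overlapping, from 176 bases before its start site, and CD24 held it 148 bases before the most upstream of its 3 RefSeq start sites and 91 bases before the next. The loose AP-1 form (6.57% of windows) lay 52 bases before the LCN2 start site, as TGAATCA. It also lay 8 bases before 1 of 6 GATA3 start sites, as TGACTCA. The usual AP-1 motif has C or G at the middle base, which the GATA3 match had and the LCN2 match did not. The TATA box (10.7% of windows) lay 24 and 30 bases before the 2 MUC1 start sites and 34 bases before that of ELF3. On the opposite strand it lay 205 bases before 1 of the GATA3 start sites. GGAAG, the core bound by ETS factors (65.1% of windows), was present in windows of LCN2, CD24, MUC1 and GATA3 on 1 strand or the other. The letters AGATAA, which GATA3 and its relatives can bind (9.17% of windows), were present in 1 of 2 EHF windows. Of the 8 genes 6 had a window. A match is a description of letters in these windows and no measurement of binding.

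Among the transcription factor genes, ELF3 rose most. ELF3 (chromosome 1, 202010562 to 202017187 on hg38, plus strand, 3247 bases of exon) drives epithelial differentiation programmes and is inducible by inflammatory signals. It had 9.97, 10.2 and 8.51 CPM in the OA libraries, against 3.20, 2.38 and 2.27 CPM in the vehicle libraries. The lowest OA library stood well above the highest vehicle library. The log2 fold change was 1.85 (SE 0.12, edgeR adjusted p = 7.68e-12), or 3.61-fold. Of all genes tested, 87.4% had a lower log2 fold change. These values rest on 541, 561 and 443 counts in OA and on 173, 108 and 89 counts in vehicle, and the vehicle counts were the lowest in any library group of the 8 genes.

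EHF rose less than ELF3, its close relative. EHF (chromosome 11, 34621041 to 34663287, plus strand, 5639 bases of exon) encodes another epithelial ETS factor. It had 6.21, 6.26 and 5.93 CPM in OA libraries, against 4.72, 3.97 and 4.44 CPM in vehicle libraries. The groups were separate, and the gap between them was wider than the range of either. EHF was 1.40-fold higher in OA (log2 fold change 0.48, SE 0.094, edgeR adjusted p = 7.81e-05).

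GATA3 was the gene whose call depended on the processing. GATA3 (chromosome 10, 8054704 to 8075201, plus strand, 3070 bases of exon) had 10.6, 11.2 and 11.3 CPM in OA libraries, against 10.6, 9.03 and 9.59 CPM in vehicle libraries. OA replicate 1 and vehicle replicate 1 were nearly equal. The log2 fold change of 0.18 (SE 0.073) did not pass the threshold (edgeR adjusted p = 0.0267). It was 0.47 with library totals only (adjusted p = 4.72e-06), 0.41 with upper quartile scaling (adjusted p = 3.19e-05) and 0.25 without vehicle replicate 1 (adjusted p = 0.00723), all past the threshold. Over the 16 alternatives run it stayed positive, from 0.13 to 0.47, with adjusted p from 4.72e-06 to 0.139. At a false discovery rate of 0.05 in place of 0.01, GATA3 would count as higher.

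The scaling moved every gene together. Over all genes the log2 fold change had a median of 0.32 on library totals alone and of 0.26 under upper quartile scaling, beside 0.03 under TMM. Higher genes made up 65.4% of calls on library totals, 62.6% under upper quartile scaling and 51.3% under TMM. The changes given here are relative to the TMM median. The other 7 genes kept their direction and their call under each of the 16 alternatives, and MUC1 came nearest to 0, at -0.29 with library totals only.

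**Figure D2:**
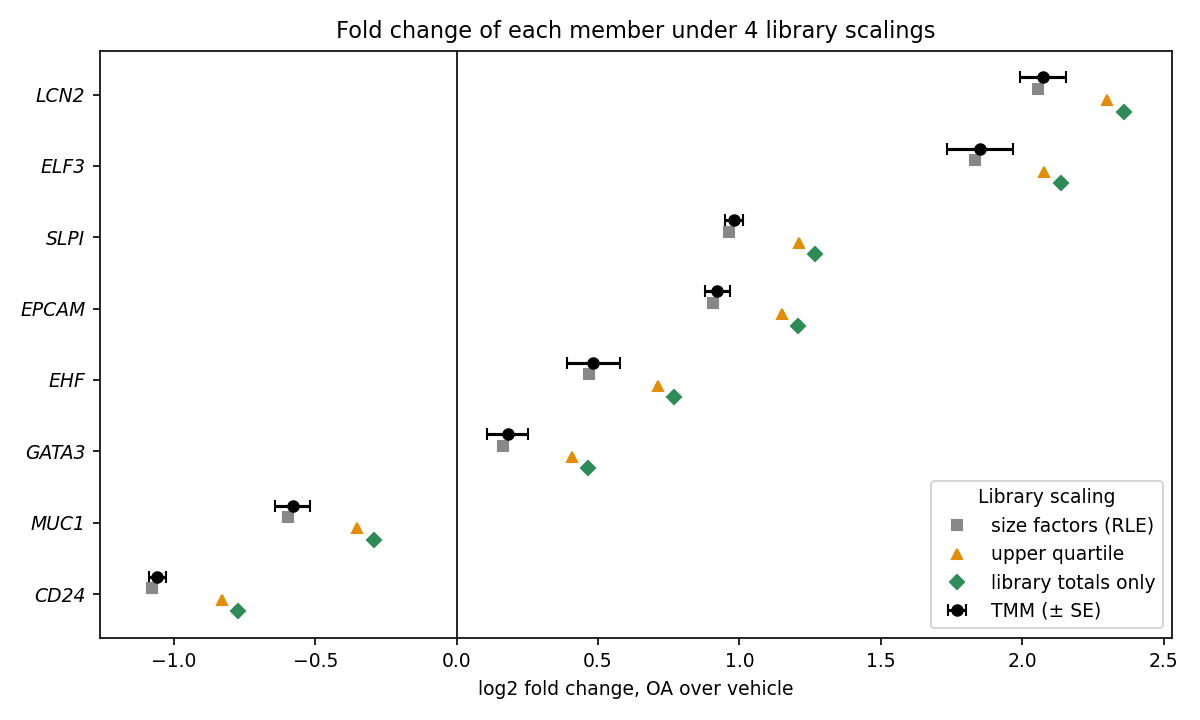
Log2 fold change of OA over vehicle (horizontal axis) for the 8 genes under TMM scaling (black circles ± SE), size factors (grey squares), upper quartile scaling (orange triangles) and library totals only (green diamonds). The last pair lie to the right of TMM for every gene, which takes GATA3 from 0.18 to 0.47 and MUC1 from -0.58 to -0.29 without a change of sign.

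Both secreted defence genes rose, LCN2 to the largest degree of the 8. LCN2 (chromosome 9, 128149430 to 128153455, plus strand, 845 bases of exon) encodes lipocalin 2. It had 16.7, 18.4 and 16.8 CPM in OA libraries, against 3.91, 3.88 and 4.62 CPM in vehicle libraries. The OA libraries were alike and each was over 3 times as high as any vehicle library. LCN2 was 4.21-fold higher (log2 fold change 2.07, SE 0.080, edgeR adjusted p = 2.53e-15), and 89.4% of all genes had a lower log2 fold change.

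SLPI also rose, by a factor close to that of EPCAM. SLPI (chromosome 20, 45252239 to 45254564, minus strand, 596 bases of exon) had 241.0, 227.0 and 228.6 CPM in OA libraries, against 120.9, 116.4 and 115.2 CPM in vehicle libraries. The spread within each group was small beside the gap. The log2 fold change was 0.98 (SE 0.032, edgeR adjusted p = 1.67e-16). SLPI lay in the highest of 10 equal bins of genes by mean level over all libraries, where 19.4% of genes were called higher, 73.0% were called lower and the median log2 fold change was -0.46.

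The surface genes split. EPCAM (chromosome 2, 47369148 to 47387028, plus strand, 1718 bases of exon) had 51.5, 50.3 and 53.3 CPM in OA libraries, against 28.8, 26.6 and 26.2 CPM in vehicle libraries. It was higher in each OA library than in any vehicle library. The log2 fold change was 0.92 (SE 0.044, edgeR adjusted p = 8.27e-14), a rise of 1.90-fold.

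CD24 went the other way. CD24 (chromosome 6, 106969831 to 106976855, minus strand, 3159 bases of exon) had 123.6, 122.2 and 118.6 CPM in OA libraries, against 245.4, 259.2 and 254.4 CPM in vehicle libraries. The OA level was 0.480 of the vehicle level, with little spread in either group (log2 fold change -1.06, SE 0.031, edgeR adjusted p = 2.45e-17). Of all genes, 11.0% had a lower log2 fold change. CD24 has processed pseudogenes elsewhere in the genome, and since reads that mapped to several places were excluded, its absolute level is uncertain.

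MUC1 fell by less, with more spread among its vehicle libraries than CD24 had. MUC1 (chromosome 1, 155185824 to 155192915, minus strand, 1838 bases of exon) had 26.1, 28.0 and 26.5 CPM in OA libraries, against 45.3, 38.6 and 36.0 CPM in vehicle libraries. Vehicle replicate 1 stood above the other vehicle libraries. MUC1 in OA was 0.669 of vehicle (log2 fold change -0.58, SE 0.063, edgeR adjusted p = 4.01e-08), and -0.48 on the log2 scale without vehicle replicate 1.

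Vehicle replicate 1, the most deeply sequenced library, had the highest TMM-scaled level of the vehicle libraries for 6 of the 8 genes (GATA3, ELF3, EHF, SLPI, MUC1 and EPCAM) and the lowest for CD24. Over all genes it was the highest vehicle library for 38.0% and the lowest for 31.8%. Without it ELF3 had a log2 fold change of 2.04, LCN2 of 2.03 and SLPI of 1.00, which left their calls in place. The part of this library in the spread of the vehicle group was not tested further.

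Levels between genes were compared per kilobase of exon, as CPM per kilobase with the length deposited beside the counts. In OA the order was SLPI (389.6 ± 12.9), CD24 (38.5 ± 0.82), EPCAM (30.1 ± 0.87), LCN2 (20.5 ± 1.1), MUC1 (14.6 ± 0.55), GATA3 (3.60 ± 0.13), ELF3 (2.95 ± 0.29) and EHF (1.09 ± 0.031; mean ± SD, n = 3). No neighbours in that order overlapped between libraries. In vehicle the order was SLPI (197.1 ± 5.1), CD24 (80.1 ± 2.2), MUC1 (21.8 ± 2.6), EPCAM (15.8 ± 0.81), LCN2 (4.89 ± 0.49), GATA3 (3.17 ± 0.25), ELF3 (0.806 ± 0.16) and EHF (0.776 ± 0.068). There ELF3 and EHF could not be told apart, since ELF3 ran from 0.699 to 0.987 and EHF from 0.703 to 0.838 CPM per kilobase. MUC1 thus stood behind EPCAM and LCN2 in OA and ahead of both in vehicle. In vehicle 98.0% of all tested genes had a lower level per kilobase than SLPI, against 22.3% for ELF3 and 22.0% for EHF.

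**Figure D3:**
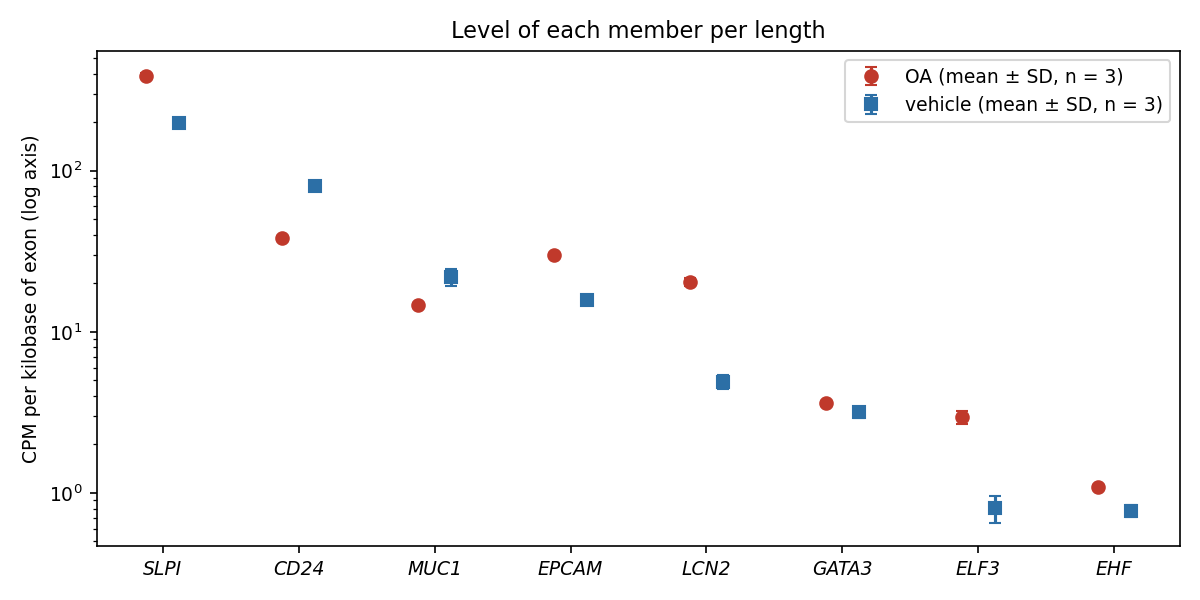
Level of each gene in CPM per kilobase of exon (log axis) in OA (red circles) and vehicle (blue squares), as mean ± SD of 3 libraries, ordered by the vehicle level. SLPI is the highest in both groups, EPCAM (30.1 in OA) and LCN2 (20.5 in OA) pass MUC1 (14.6 in OA), and ELF3 parts from EHF in OA (2.95 against 1.09).

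Ratios between 2 genes within a library do not depend on how libraries are scaled. For 7 such ratios, taken per kilobase, the OA and vehicle libraries did not overlap, and each gave an exact two-sided permutation p = 0.1, the smallest that 3 against 3 libraries allow. The groups did not overlap for 88.8% of single genes either. The share among ratios of other gene pairs was not computed, so the separation is not read as particular to these genes. The ratio of ELF3 to EHF was 2.79, 2.84 and 2.49 in OA libraries, against 1.18, 1.04 and 0.888 in vehicle libraries. Per kilobase of the deposited exon lengths, the ETS pair thus had like levels in vehicle and unlike levels in OA. In CPM, without length, EHF stood above ELF3 in each vehicle library and below it in each OA library. The ratio of GATA3 to ELF3 averaged 1.23 ± 0.16 in OA and 3.99 ± 0.49 in vehicle (SD, n = 3), and that of GATA3 to EHF 3.31 ± 0.19 in OA and 4.09 ± 0.11 in vehicle.

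At the cell surface, the ratio of CD24 to EPCAM was 1.31, 1.32 and 1.21 in OA libraries, against 4.63, 5.29 and 5.28 in vehicle libraries, and that of MUC1 to EPCAM was 0.474, 0.520 and 0.464 in OA, against 1.47, 1.35 and 1.29 in vehicle. Relative to EPCAM, CD24 in OA was at 0.252 and MUC1 at 0.355 of its vehicle ratio. The fallers also differed from each other, with a ratio of CD24 to MUC1 of 2.63 ± 0.11 in OA and 3.72 ± 0.51 in vehicle. Of the secreted pair, LCN2 to SLPI averaged 0.0526 ± 0.0041 in OA and 0.0249 ± 0.0030 in vehicle.

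**Figure D4:**
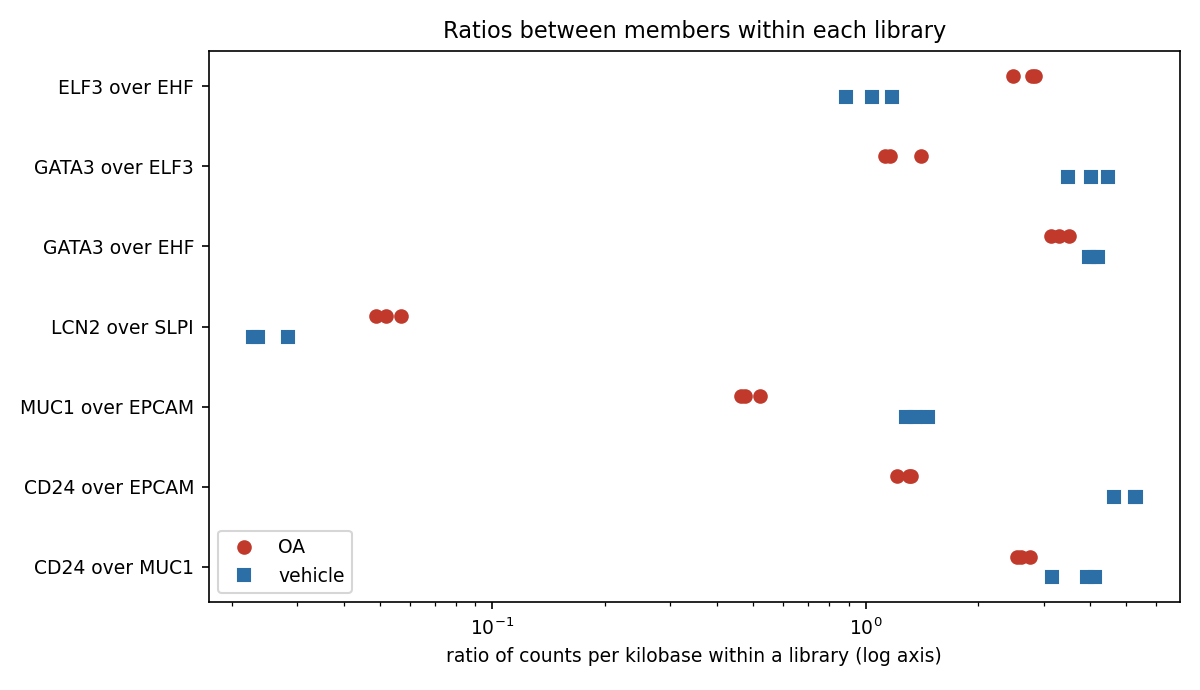
Ratios between 2 genes in counts per kilobase within each library (log axis), with OA libraries as red circles above the vehicle libraries as blue squares. All 7 chosen ratios are separate between the groups, most widely CD24 over EPCAM (1.28 in OA and 5.07 in vehicle on average). How often ratios of other gene pairs are separate was not computed.

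Genes of low level tended to rise in OA and genes of high level to fall, so each gene was also set beside genes of like mean level. ELF3 and EHF lay in bin 3 of 10 from the lowest level, with a median log2 fold change of 0.72 and 62.5% of genes called higher. In that bin 76.9% of genes had a lower log2 fold change than ELF3 and 42.5% a lower one than EHF, so EHF rose less than the median gene of its level. LCN2 and GATA3 shared bin 4 (median 0.33), where 90.5% of genes had a lower log2 fold change than LCN2 and 44.0% a lower one than GATA3. EPCAM (bin 7, 51.3% of genes called lower) and SLPI (bin 10, 73.0% called lower) rose where most genes of like level fell. MUC1 and CD24 fell in bins whose medians were also negative (-0.09 in bin 6 and -0.46 in bin 10), and 26.0% of the genes of like level had a lower log2 fold change than MUC1.

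Other luminal genes were read from a pair of lists that share no gene with the 8. Of 51 listed genes 34 were tested, and 22 rose, 7 fell and 5 did not pass, with a median log2 fold change of 0.36 beside 0.03 for all genes. Of 18 luminal transcription factor genes 12 rose and 3 fell. TBX3, a T-box factor of mammary development, averaged 57.0 ± 3.3 CPM in OA and 19.0 ± 0.78 CPM in vehicle (SD, n = 3). CEBPB, a factor needed for alveolar differentiation in mice, was 1.89-fold higher, and OVOL1, a zinc finger repressor of mesenchymal genes, 4.46-fold higher. Genes of hormone-sensing luminal cells went both ways (chosen for mention once their values were known). FOXA1, a pioneer factor gene, was 1.45-fold higher. ESR1, the estrogen receptor gene, was at 0.393 of its vehicle level, with 0.655 ± 0.26 CPM in OA and 1.66 ± 0.19 CPM in vehicle.

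Of 16 tested luminal keratin, surface and secreted genes 10 rose and 4 fell. The tight junction gene CLDN4 was 6.49-fold higher in OA, with 159.9 ± 10.3 CPM in OA and 24.7 ± 1.3 CPM in vehicle, and ERBB3, a receptor gene of the EGF family, was 4.21-fold higher. The keratin gene KRT7 was at 0.504 of vehicle (log2 fold change -0.99). The simple epithelial keratin genes KRT8 and KRT18, named after their values were seen, fell as well (log2 fold changes -0.23 and -0.45), and both have many processed pseudogenes. With library totals only, the split was 26 higher and 5 lower over both lists together. KRT19, a keratin of luminal cells, had 16, 7 and 8 counts in OA libraries and 8, 2 and 4 counts in vehicle libraries, too few to test. Luminal markers such as KIT, PROM1, PGR and the milk protein genes were not analysed here.

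Basal and myoepithelial genes were evenly split. Of 25 tested 12 rose, 12 fell and 1 did not pass, with a median log2 fold change of 0.02. CAV1, the caveolin 1 gene, was at 0.128 of vehicle, and the basal keratin genes KRT5 (0.271 of vehicle) and KRT14 (0.214) also fell. KRT5 had 1061 ± 55 CPM in OA and 3918 ± 51 CPM in vehicle (SD, n = 3). Among the risers was the basal keratin gene KRT17 (1.51-fold), unlike KRT5 and KRT14. The contractile gene ACTA2 (2.95-fold) and the transcription factor gene SNAI2 (2.40-fold) rose too. Genes of these kinds went both ways. The contractile genes MYL9 (1.70-fold) and MYLK also rose, while TAGLN (0.356 of vehicle) and TPM2 (0.637) fell. The transcription factor gene TP63 was at 0.363 of vehicle. KRT17 and the genes given after it were named after their values were seen.

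**Figure D5:**
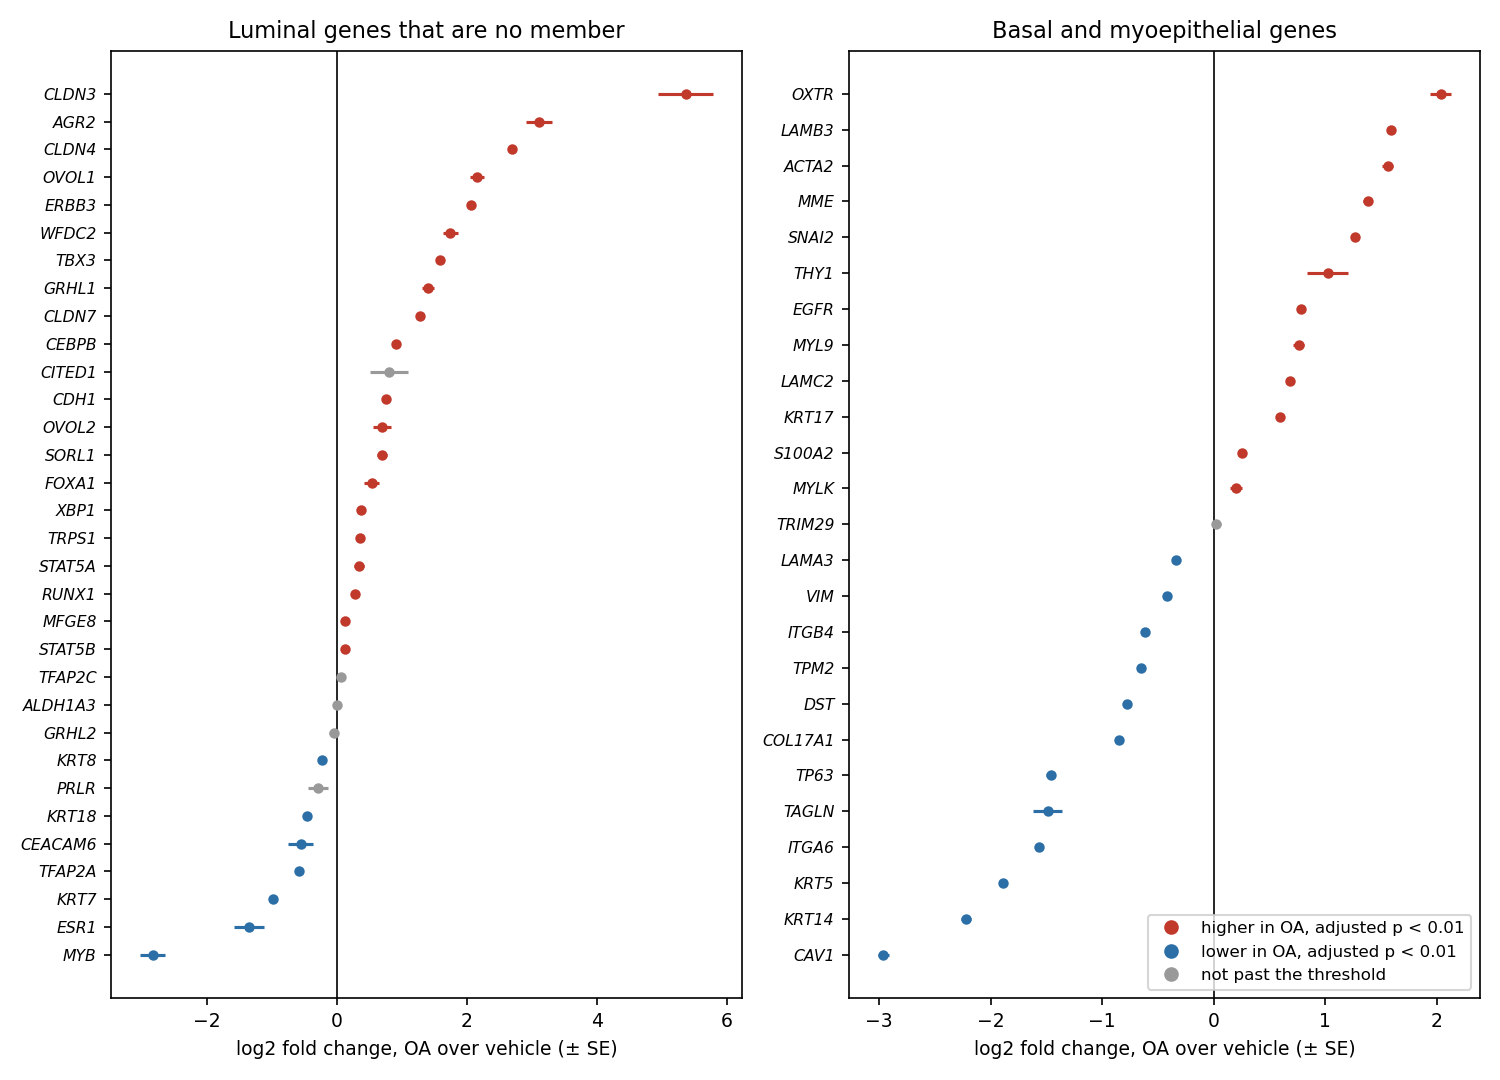
Log2 fold change of OA over vehicle (± SE) for 32 of the 34 tested luminal genes outside the 8 (left) and the 25 tested basal and myoepithelial genes (right), in red where higher and in blue where lower at an adjusted p under 0.01, and in grey otherwise. On the left 20 of the genes shown were called higher and 7 lower, and on the right 12 genes were called higher and 12 lower.

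The relatives of the ETS factor genes shared no direction. Of 19 other ETS family genes tested 7 rose, 9 fell and 3 did not pass (median log2 fold change -0.02). The repressor gene ERF was at 0.408 and GABPA, which controls genes of mitochondria and the cell cycle, at 0.573 of vehicle, while ETV1 was 1.80-fold higher. ELF1, ELF2 and ELF4, named after their values were seen, had log2 fold changes of 0.25, 0.02 and -0.50. Of 7 GATA family genes and cofactors 5 rose, 1 fell and 1 did not pass (median log2 fold change 0.35). LMO4, a LIM adaptor gene expressed in mammary epithelium, was 1.76-fold higher. LDB1, whose product bridges LIM and GATA complexes, was at 0.649 of vehicle, and GATA4 had 2.74 ± 0.25 CPM in OA and 0.452 ± 0.088 CPM in vehicle.

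The rises of LCN2 and SLPI were not shared by mucosal defence genes as a list. Of 18 such genes tested 7 rose, 9 fell and 2 did not pass (median log2 fold change -0.32). CXCL1, a neutrophil chemokine gene, was at 0.133 of vehicle and SAA1, an acute phase gene whose reads could be shared with SAA2, at 0.337, while the chemokine gene CCL20 was 8.51-fold higher (42.0 ± 2.8 CPM in OA and 4.89 ± 1.2 CPM in vehicle). PI3 encodes elafin, a protease inhibitor of the same domain family as SLPI. It was at 0.389 of vehicle, whereas WFDC2, another gene of that family, was 3.36-fold higher. The NF-kB feedback genes TNFAIP3 (0.397 of vehicle) and NFKBIA (0.827) fell too. PI3, WFDC2 and the feedback genes were named after their values were seen.

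Partners and relatives of the secreted and surface genes mostly rose, 14 of 19 tested, with 3 lower and a median log2 fold change of 0.41. SPINT1, a membrane inhibitor of the protease matriptase, was 3.38-fold higher, with 194.9 ± 5.2 CPM in OA and 57.6 ± 1.8 CPM in vehicle. ANXA2, an annexin to which SLPI can bind, was at 0.471 of vehicle. The mucin gene MUC3A, which has near-identical relatives, had 6.65 ± 0.34 CPM in OA and 0.159 ± 0.015 CPM in vehicle. The following were named after their values were seen. CLDN7, which forms a complex with EPCAM, was 2.44-fold higher. MMP9, whose protein LCN2 binds, was 12.4-fold higher at 3.26 CPM in OA, and the LCN2 receptor gene SLC22A17 was 9.60-fold higher. CD44, often read together with CD24, was at 0.681 of vehicle.

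The genes nearest to each of the 8 in pattern were found by the distance between log2 CPM values, centred on the vehicle mean, over the 6 libraries among 13782 genes. INHBA and RBCK1 lay nearest to EPCAM, RIC8A and GPN3 to CD24, ACSF2 and ZSCAN29 to SLPI, and NCCRP1 and SLC7A8 to LCN2. FAM89B and IKBKE lay nearest to MUC1, FAM193B and TSTD2 to EHF, FRAT2 and PDSS2 to GATA3, and TUBBP5 and TNFRSF11B to ELF3. The distances ran from 0.049 for RIC8A to 0.19 for TNFRSF11B. None of the 8 was among the nearest pair of another, and the 6 libraries of 2 groups mainly rank genes by the size of their change.

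Markers of other cell types were read because LCN2 and SLPI are also made by neutrophils and LCN2 by liver. Hepatocyte markers differed between libraries. The summed level of the 13 of 17 markers in the table was 12.8, 31.5 and 98.0 CPM in OA replicates 1, 2 and 3, and 6.70 to 11.4 CPM in vehicle, and ALB had 32, 578 and 2427 counts in OA and 13, 110 and 60 counts in vehicle. Most of the sum in OA replicate 1 and in each vehicle library was SERPINA1, with 580, 599 and 660 counts in OA and 315, 293 and 263 in vehicle. All 10 hepatocyte markers tested were called higher in OA, beside 43.3% of all genes, and each had its highest count in OA replicate 3. In OA replicate 1 only APOA1, FGG and SERPINA1 had more counts than every vehicle library. LCN2 had 907, 1006 and 876 counts in OA replicates 1, 2 and 3. Without OA replicate 3 its log2 fold change was 2.08 and that of SLPI 0.98. Of 13 neutrophil and other immune markers 3 were in the table (CD14, CD68 and MPO), with sums of 62.2 to 64.8 CPM in OA and 22.6 to 25.0 CPM in vehicle. All 3 were called higher, and most of the sum was CD68, with 56.0 CPM in OA and 21.0 CPM in vehicle. MPO had 93, 94 and 94 counts in OA and 13, 12 and 6 counts in vehicle, and PTPRC, ELANE and CEACAM8 were not analysed here. The part of any hepatocytes or immune cells in the changes of LCN2 and SLPI was not tested. Fibroblast markers (3 of 6 in the table) summed to 101.8 to 104.2 CPM in OA and 61.1 to 76.3 CPM in vehicle, and endothelial (2 of 4) and adipocyte markers (2 of 4) each stayed under 7 CPM in every library.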

How the data were processed

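Raw counts per gene were deposited for 6 MCF-12A libraries, 3 per group by their labels, with a gene length in bases. The authors mapped the reads with STAR 2.5 (hg38), dropped those of low mapping quality or with several positions, and made the counts with featureCounts 1.5.1. The sources used here differ on read layout and do not state how strand was handled. No exon of the 8 genes overlapped one of another listed gene.

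The main test was made in edgeR 4.0.16 (R 4.3.3) with TMM scaling, filterByExpr (18 genes removed), the two-sided quasi-likelihood test without covariate, and Benjamini-Hochberg adjustment over 14785 genes at a false discovery rate of 0.01. SEs were taken from the fold change and its F statistic (median over genes 0.0529). The steps were tested on simulated data.

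The genes and lists were chosen with earlier results of these data known. The text names the 8 genes, the 3 genes of smallest p per list with at least 1 CPM, the 2 nearest genes in pattern (log2 CPM, prior count 2), and others marked as chosen after seeing values. Lists have counts and medians and no test.

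Alternatives were RLE, upper quartile or no scaling, other filters, the study's likelihood ratio test, DESeq2 1.42.0, limma-voom (limma 3.58.1), a replicate block, each library left out, mitochondrial RNA and the 20 most abundant genes left out, and a false discovery rate of 0.05. The values of 2 listed genes are not reported here singly, and they count in their lists.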

Additional observations from a re-analysis of the deposited data

How the results depend on the processing

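The counts of genes called among the 8 were 5 or 6 higher and 2 lower under all 17 alternatives, the sixth being GATA3. Over all genes the calls ran from 5961 to 8223 higher and from 4341 to 6354 lower, over luminal genes outside the 8 from 21 to 26 higher and 5 to 7 lower, and over basal genes from 11 to 13 higher and 11 to 12 lower. With the replicate block the calls were 5 and 2 among the 8, 6294 and 5983 over all genes, and unchanged in number for the luminal (22 and 7) and basal lists (12 and 12). Libraries with the same replicate number did not deviate together (r across genes 0.081, 0.013 and -0.026), so the numbers were not read as pairs. With each library left out in turn, LCN2 ran from 2.02 to 2.15 on the log2 scale, ELF3 from 1.76 to 2.04, SLPI from 0.95 to 1.00, EPCAM from 0.89 to 0.97, EHF from 0.42 to 0.55, GATA3 from 0.13 to 0.25, MUC1 from -0.65 to -0.48 and CD24 from -1.08 to -1.04.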
